A study of Homo sapiens with 24 samples.

Results

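The cytosolic ribosomal protein genes were located against the super-enhancers of unedited OCI-Ly7 cells, an established line from a human DLBCL (diffuse large B-cell lymphoma) of germinal center B-cell-like subtype. A gene was counted as a ribosomal protein gene when it was protein-coding on chromosomes 1 to 22 in GENCODE version 44 and its symbol was RPL or RPS with a number and any of the endings A, X or L, or was RPLP0, RPLP1, RPLP2 or RPSA. This gave 78 of 19111 protein-coding genes, 47 of the large subunit and 31 of the small subunit. The limit to chromosomes 1 to 22 left out 4 genes on chromosome X (RPS4X, RPL36A, RPL39 and RPL10), and no measured value entered the rule.

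The series profiled H3K27ac, H3K4me1 and H3K4me3 by CUT&RUN, in which an antibody guides a nuclease to a chromatin mark so that the DNA beneath can be released and sequenced, in isogenic OCI-Ly7 cells. Its 24 samples formed 12 groups of 2, with 4 genotypes for each mark: CRISPR non-edited control clones (WT), CREBBP-R1446C (C, a point mutation that inactivates the acetyltransferase), KMT2D-KO (K) and CREBBP-R1446C with KMT2D-KO (CK). The table used here lists super-enhancers of WT cells from H3K27ac, with both WT libraries merged into 1 signal column, so values below carry no replicate error and the other 22 samples were not analysed here. The edited lines were grown from single cells, and a super-enhancer table from 1 line describes that line and not germinal center B cells at large.

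Ribosomal proteins build the 2 subunits of the cytosolic ribosome around ribosomal RNA, and each is needed in matched amounts, so their genes are transcribed strongly and steadily in nearly all growing cells. Their genes are short, their promoters are compact, and many of their mRNAs begin with a cytosine followed by a run of pyrimidines, the 5′ terminal oligopyrimidine tract that ties their translation to growth signals. H3K27ac marks active promoters and enhancers, and the name super-enhancer is given to stitched groups of H3K27ac peaks whose summed signal is unusually high, known chiefly from genes of cell identity. Several germinal center and B-cell genes served as a check of the label: 6 of 8 germinal center markers (BCL6, CD38, MEF2B, MME, MYBL1 and S1PR2) and 5 of 9 B-cell markers (CD79A, CD79B, EBF1, MS4A1 and PAX5) had a super-enhancer within 50 kb. The same held for 2 of 8 T-cell, 1 of 6 myeloid, 0 of 4 erythroid and 1 of 6 epithelial and fibroblast markers.

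The sequence at the start of these genes is shown first, because it is what most of the set shares and because 5 of the genes had their start site inside a super-enhancer. RefSeq promoters (GRCh38.p14) were matched for 61 of 78 genes. Each line gives the 80 bases before the RefSeq start and the first 20 transcribed bases, with the unbroken run of C and T bases at the start in capitals. The first 5 genes are those with a start site inside a super-enhancer by the GENCODE gene model, RPS19 had the super-enhancer with the highest signal, and RPL24 and RPL10L were among the 3 genes farthest from any super-enhancer.
RPS14 (chr5:150449720-150449819, minus strand): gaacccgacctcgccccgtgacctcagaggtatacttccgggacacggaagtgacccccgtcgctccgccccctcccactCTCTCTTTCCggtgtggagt
RPS10 (chr6:34426050-34426149, minus strand): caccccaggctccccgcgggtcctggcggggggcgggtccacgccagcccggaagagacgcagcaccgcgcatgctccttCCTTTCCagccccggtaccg
RPL21 (chr13:27251478-27251577, plus strand): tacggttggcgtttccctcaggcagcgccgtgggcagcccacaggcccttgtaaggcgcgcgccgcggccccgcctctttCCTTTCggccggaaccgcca
RPL36 (chr19:5690215-5690314, plus strand): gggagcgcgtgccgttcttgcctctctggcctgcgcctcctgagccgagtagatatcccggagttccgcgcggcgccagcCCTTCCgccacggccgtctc
RPL6 (chr12:112411423-112411522, minus strand): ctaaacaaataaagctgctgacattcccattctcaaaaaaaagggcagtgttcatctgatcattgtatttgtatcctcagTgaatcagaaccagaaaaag
RPS19 (chr19:41860175-41860274, plus strand): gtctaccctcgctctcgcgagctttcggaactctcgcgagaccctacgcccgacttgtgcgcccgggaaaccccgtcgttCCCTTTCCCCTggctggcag
RPL24 (chr3:101686699-101686798, minus strand): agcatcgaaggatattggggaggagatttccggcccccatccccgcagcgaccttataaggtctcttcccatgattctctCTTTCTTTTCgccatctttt
RPL10L (chr14:46651762-46651861, minus strand): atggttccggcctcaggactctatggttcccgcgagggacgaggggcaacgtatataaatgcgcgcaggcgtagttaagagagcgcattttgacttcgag
Of these 8 genes, 6 began with a pyrimidine run of 6 bases or more, among them RPL24, which lay 3104 kb from the nearest super-enhancer. In RPL10L, an intronless copy of RPL10 known for expression in testis, the start was not followed by C or T. The RefSeq entry for RPL6 starts 7.396 kb inside the GENCODE gene model, so its window shows an internal start.

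A start with C followed by at least 4 further C or T bases was found in 40 of 61 ribosomal protein promoters (65.6%), against 4.62% of 14622 promoters of all protein-coding genes with an entry. It was as common in the linked genes (14 of 21, 66.7%) as in the others (26 of 40, 65.0%), where a linked gene is one with a super-enhancer within 50 kb of its body. These counts depend on the exact base of the RefSeq start, which lay within 50 bases of the GENCODE model start in 44 of the 61 genes. A gene counted without a run may therefore have one at another start. Other letters were searched on both strands from 250 bases before to 50 bases after the start. CCGGAA, the core bound by ETS factors such as GABPA, was in 55.7% of ribosomal protein promoters and 23.4% of all promoters. ATGGCGG, the YY1 core, was in 18.0% and 7.76%. GGGCGG, the GC box, was in 55.7% and 59.6%, and TATAAA, the TATA box, in 9.84% and 9.71%. Among the linked genes GGGCGG was in 8 of 21 promoters and among the others in 26 of 40. The median GC content of the window was 59.3% in ribosomal protein genes and 63.0% in all genes. These matches describe letters in a window and no binding was measured.

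**Figure D1:**
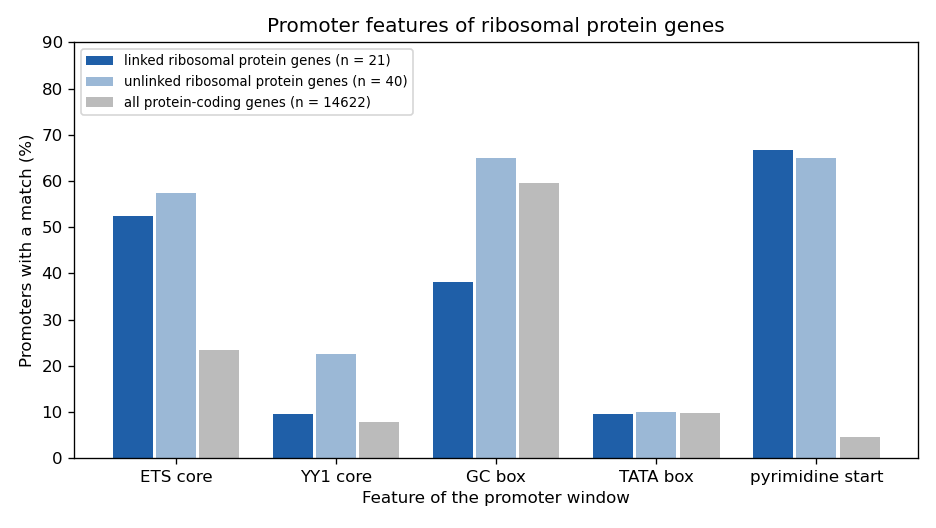
Share of promoters (%, vertical axis) that held each feature, for linked and unlinked ribosomal protein genes and all protein-coding genes with a RefSeq promoter. The pyrimidine start stood at 66.7% and 65.0% in the ribosomal protein genes and at 4.62% in all genes, whereas the TATA box was near 10% in every group.

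Of the 78 ribosomal protein genes, 29 (37.2%) had a super-enhancer overlapping the gene body extended by 50 kb on each side, and 49 had none. The 95% exact binomial interval was 26.5% to 48.9%, which covers only the spread expected from counting 78 genes. The share over all protein-coding genes was 31.8%, inside that interval. Ribosomal protein genes are short, with a median length of 5.439 kb against 27.9 kb for all genes, and a shorter gene gives a narrower window. In the other genes of the same 10 length classes, weighted by how many ribosomal protein genes fell in each, the share was 26.8%. The ribosomal protein genes were therefore 10.4 percentage points above genes of like length, and with the length share held fixed the interval of this difference ran from -0.268 to 22.1 points. When classes of neighbouring protein-coding start sites took the place of length classes the difference was 4.08 points, and with 5 by 5 classes of both it was 10.02 points. At this window the excess over genes of like length could not be told from counting error.

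The order of the windows showed where the linked regions lay. A super-enhancer overlapped the gene body itself in 8 of 78 genes (10.3%), against 17.9% of all genes and 9.54% of genes of like length. Within 10 kb the count was 16 (20.5%), against 21.6% of all genes and 15.0% by length. Within 100 kb it was 40 (51.3%), against 41.1% and 37.4%. The share of the ribosomal protein genes thus lay within 1 percentage point of like-length genes at the gene body and 13.9 points above them within 100 kb. At 100 kb the like-length share fell below the exact interval of 39.7% to 62.8%, whereas at 0, 10 and 50 kb it lay inside the interval. The windows are nested, and classes of neighbouring start sites were not applied at 100 kb.

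**Figure D2:**
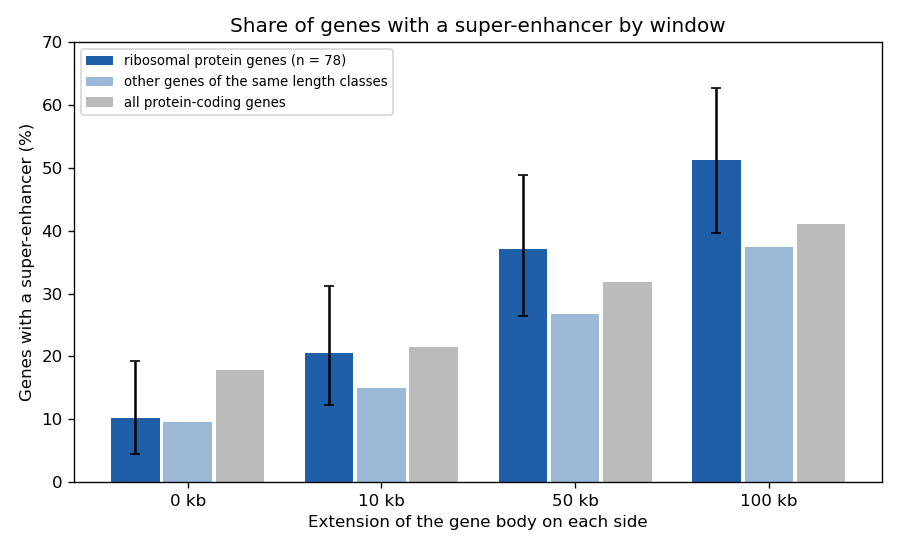
Share of genes with a super-enhancer (%, vertical axis) for gene bodies extended by 0, 10, 50 or 100 kb on each side, for 78 ribosomal protein genes with 95% exact binomial intervals, other genes of the same length classes and all protein-coding genes. At 0 kb the ribosomal protein genes (10.3%) were level with genes of like length (9.54%), and at 100 kb they were at 51.3% against 37.4%.

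The distance from a ribosomal protein gene to the nearest super-enhancer had a median of 88.8 kb, with an approximate 95% order-statistic interval of 53.4 to 207 kb over the 78 genes. The median was 168 kb for all protein-coding genes and 182 kb for genes weighted by the same length classes, both inside that interval. The lower and upper quartiles of 17.5 and 427 kb show how far the genes differed among themselves. More than 1 Mb lay between the gene and any super-enhancer for 12 genes (15.4%), against 17.5% of all genes. The farthest were RPL10L at 3176 kb, RPL7 at 3104 kb and RPL24 at 3104 kb, the last 2 being large-subunit proteins used by every ribosome. Just inside the 50 kb limit were RPLP2 (36.3 kb), RPL10A (42.1 kb) and RPL41 (47.4 kb), and just outside were RPS28 (51.7 kb), RPS27 (53.4 kb) and RPL26 (58.5 kb). The regions below the signal cutoff of the table were not analysed here, so a gene without a region may still have H3K27ac peaks near it.

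**Figure D3:**
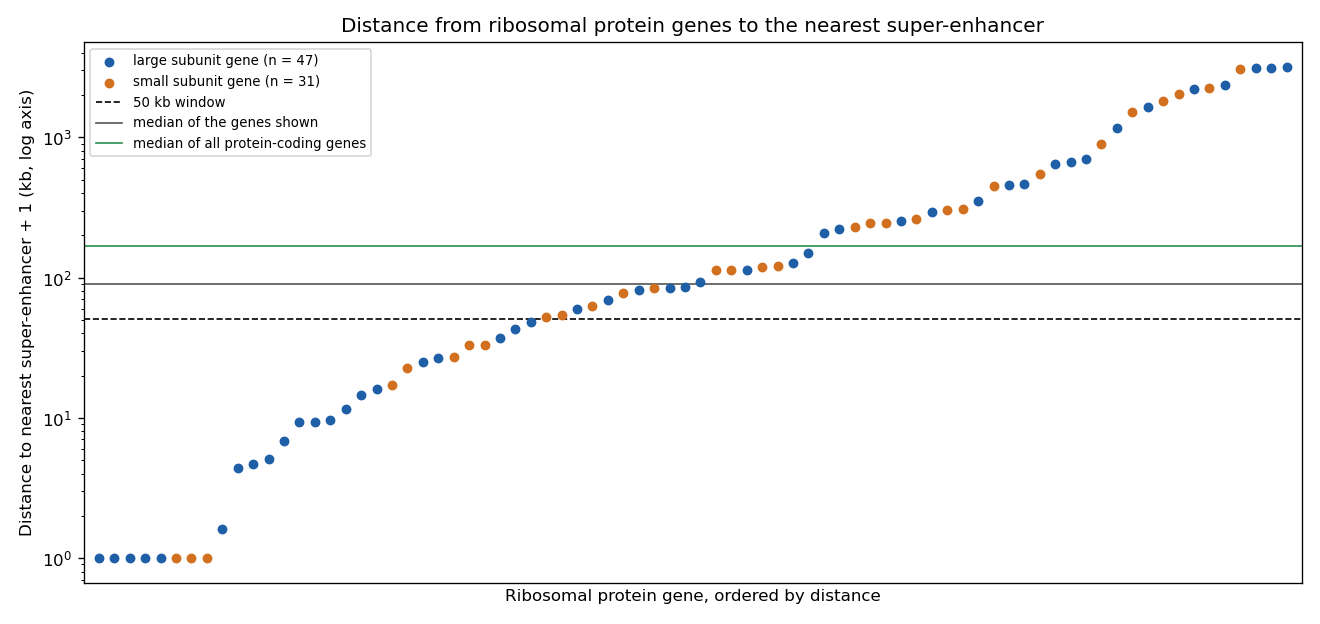
Distance from each of 78 ribosomal protein genes to the nearest super-enhancer, plus 1 kb, on a log axis, ordered by distance and coloured by subunit. The points at the bottom are the 8 genes overlapped by a region, and the last, RPL10L, lies 3176 kb away.

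Among the 8 genes that a super-enhancer touched, RPS14, RPL21 and RPL39L were the only gene in their region. RPS14 (ENSG00000164587.13), a protein of the small subunit lost in the 5q deletion syndrome, lies at chromosome 5, 150442635 to 150449739 (hg38), and its whole body was inside a region at 150417372 to 150482297. That region had rank 676 of 2615, a ROSE signal of 30404 and 18 constituents over 64.9 kb, and 89.1% of its bases lay outside protein-coding genes. The signal is the H3K27ac signal that ROSE sums over a stitched region and has no stated unit, and the cutoff was 10617. RPS14 thus lay in a region at 2.86 times the cutoff that held no other protein-coding gene, with the RPS14 start 32.4 kb from the nearer edge. The starts of 2 other protein-coding genes lay outside this region but within 50 kb of the RPS14 body, so the region need not belong to RPS14 alone. RPL21 (ENSG00000122026.11), a large-subunit protein whose introns carry 2 snoRNAs, lies at chromosome 13, 27251362 to 27256691, wholly inside a region at 27248377 to 27262352. That region had rank 2095, a signal of 13310 and 4 constituents over 14.0 kb, and at 0.952 its signal per bp was well above the median of 0.343 over all regions. It was the shortest of the regions that touched a ribosomal protein gene, and 38.1% of it was RPL21 itself. RPL39L, a paralogue of RPL39 known from testis and some tumours, has a long gene model (60.0 kb), of which 24.3% was covered by a region of rank 2139 (signal 13028) that began 45.4 kb past its start.

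RPS10, RPL6 and RPL36 also had a start site inside a region, together with that of at least 1 other gene model. For RPS10 the only other model was the readthrough gene RPS10-NUDT3. RPS10 (ENSG00000124614.17, chromosome 6, 34417454 to 34426069), a small-subunit protein mutated in Diamond-Blackfan anaemia, lay wholly in a region at 34415495 to 34460492, which had rank 2530 and a signal of 11002, 1.04 times the cutoff. A second region downstream of RPS10, at 34268954 to 34389170, was stronger (rank 432, signal 37628, 43 constituents) and lay over NUDT3. The readthrough gene RPS10-NUDT3 spans both, so the gene names of these regions overlap. RPL6 (ENSG00000089009.16, chromosome 12, 112405189 to 112418838) lay wholly in a region at 112404553 to 112431396 (rank 2495, signal 11156, 4 constituents) that also held the start of PTPN11, which encodes the phosphatase SHP2. For RPL36 (ENSG00000130255.13, chromosome 19, 5674947 to 5691875) the GENCODE model starts inside a region at 5632669 to 5687187 (rank 1678, signal 16170), but the RefSeq start, with its pyrimidine run, lies 15.3 kb farther on and 3.11 kb outside that region. The starts of MICOS13 and HSD11B1L, 2 neighbours of RPL36, were inside it.

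RPS3 and RPL22 were overlapped away from their start. RPS3 (chromosome 11, 75399515 to 75422280), a small-subunit protein at the mRNA entry that also binds NF-κB p65, had 63.4% of its body in a region at 75407858 to 75539690 (rank 565, signal 33037, 45 constituents) which ran on over KLHL35 and GDPD5. RPL22 (chromosome 1, 6185020 to 6209389), a large-subunit protein deleted in some lymphoid cancers, had 47.2% of its body in a region at 6142095 to 6196517 of rank 2472 (signal 11287) that held the start of CHD5. A stronger region lay upstream of RPL22 at 6249294 to 6356486, over GPR153 and ACOT7 (rank 1206, signal 20752). Over the 8 genes, the region that touched the body had a median signal of 13169, from 11002 for RPS10 to 33037 for RPS3, and 2 of them (RPS3 and RPS14) were above the median of all regions, 19736.

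A start site lay inside a region in 5 genes (6.41%, 95% exact interval 2.11% to 14.3%), against 8.11% of all genes and 6.37% of genes of like length. With any annotated transcript start the count for ribosomal protein genes was again 5, against 14.8% of all genes and 7.99% of genes of like length. ROSE had been run so that H3K27ac peaks less than 2500 bp from a coding start did not count, and in a short gene that zone takes up more of the body. A median of 46.0% of a ribosomal protein gene lay within 2500 bp downstream of its own start, against 8.97% for all genes, and 9 of the 78 lay in it entirely. Peaks left out in this way could still lie inside a region where stitching, over gaps of up to 12500 bp, bridged them. How peaks that reach past the 2500 bp zone were treated is not stated in the methods. The part of this exclusion in the count was not tested.

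The 29 linked genes drew on 34 separate regions, 1.30% of the 2615, and no region was within 50 kb of 2 ribosomal protein genes. A single region was linked to 24 of the genes and 2 regions to the other 5 (RPL22, RPL23, RPL35, RPLP0 and RPS10). Taking for each gene its highest-ranked region, the signal had a median of 21037 with an approximate 95% order-statistic interval of 16793 to 23856. The median was 19736 over all regions and 21054 over the highest-ranked regions of all 6083 linked protein-coding genes, both inside that interval. Their signal per bp had a median of 0.313, against 0.343 for all regions, their length a median of 56.3 kb against 60.7 kb, and their number of constituents a median of 17 against 16. Of the 29, 15 (51.7%) were under 2 times the cutoff, against 55.3% of all regions, and 2 were among the 261 with the highest signal (9.98% of all).

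Those 2 were the regions of RPS19 and RPL23A. RPS19 (ENSG00000105372.8, chromosome 19, 41860255 to 41872925), the small-subunit gene most often mutated in Diamond-Blackfan anaemia, had a region 32.2 kb past its end at 41905132 to 41952352, with rank 159, a signal of 57722 and 10 constituents in 47.2 kb. At 1.22 its signal per bp was the highest among the highest-ranked regions of the 29 genes. This region overlapped ARHGEF1, which encodes a guanine nucleotide exchange factor acting below Gα13 in germinal center B cells, and held the start of ERFL. The starts of 5 other protein-coding genes, that of ERFL included, lay closer to the region than the start of RPS19 did. RPL23A (chromosome 17, 28719985 to 28724359), a large-subunit protein whose gene carries 4 snoRNAs, had a region 8.36 kb past its end with rank 201 and a signal of 53699, over NEK8, TRAF4 and FAM222B. The start of TRAF4, an adaptor of TNF receptor signalling, was inside it.

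Next in signal came regions near RPL35 (42659, rank 332, over NR6A1 and OLFML2A), RPS10, RPL5, RPS3 and RPS14, of which RPS10, RPS3 and RPS14 are given above. RPL5 (chromosome 1, 92832013 to 92841924), which with RPL11 and 5S ribosomal RNA forms the particle that restrains MDM2, had its region 10.6 kb past its end, with a signal of 36330 and 99.6% of its bases in introns of DIPK1A. No other protein-coding start lay closer to that region than that of RPL5. RPL11, the partner of RPL5 in that particle, had a region 24.1 kb upstream of its start (chromosome 1, 23641915 to 23667692, rank 1779, signal 15371), which overlapped no protein-coding gene. RPS15A followed with a signal of 28623 over SMG1, RPL23 with 25541 over LASP1, and RPL4, the last of the 10 strongest, with 23856 over MAP2K1 and SNAPC5. The lowest signals were those of RPL38 (12034, over TTYH2) and RPL6 (11156).

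**Figure D4:**
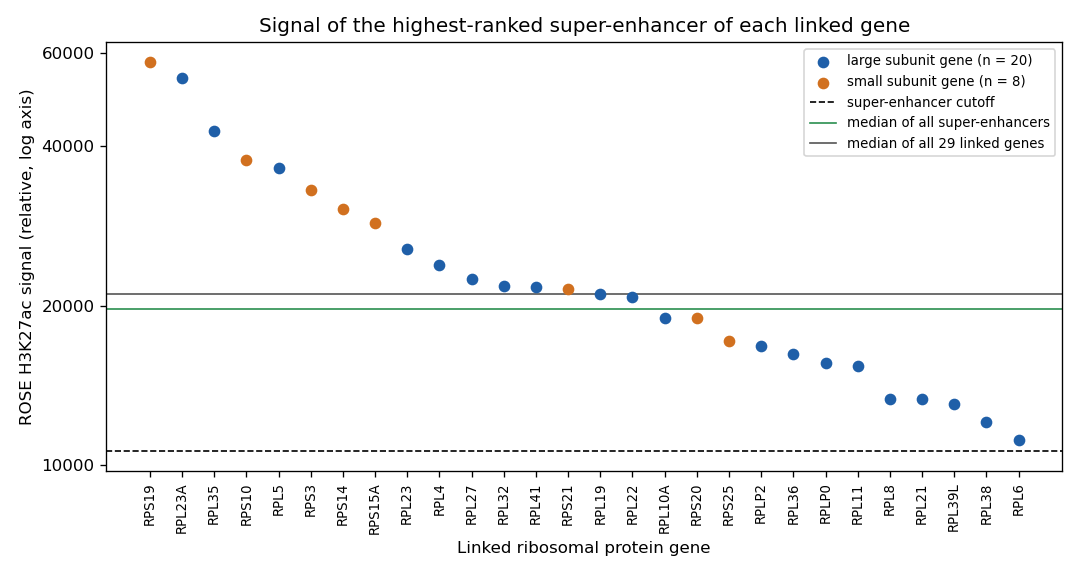
ROSE H3K27ac signal (log axis, relative units of 1 pooled WT column, no error bars available) of the highest-ranked super-enhancer of 28 of the 29 linked ribosomal protein genes, coloured by subunit, with the cutoff and medians as lines. Values ran from 57722 for RPS19 to 11156 for RPL6, and the median of 21037 over all 29 lay just above the 19736 of all super-enhancers.

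The regions were mostly placed over other genes. The counts below were not computed for all 6083 linked protein-coding genes, so none can be called particular to ribosomal protein genes. Of the 29 highest-ranked regions, 28 overlapped a protein-coding gene, although those of RPS14, RPL21 and RPL39L overlapped only the ribosomal protein gene itself. For 21 of the 29 genes the start of at least 1 other protein-coding gene lay closer to the region than the start of the ribosomal protein gene did. The median number of such closer genes was 2 and the highest was 8, for RPL41. In 15 cases the start of another gene was inside the region, as with PTPN11 for RPL6. The kinase gene LYN lay under the region linked to RPS20, whose start was nevertheless the closest to it (39.5 kb). Relative to transcription of the ribosomal protein gene, the highest-ranked region lay downstream of the start in 17 genes, upstream in 8, and over the start in 4. The median composition of the 34 regions was 69.5% intronic, 9.39% exonic and 13.1% outside protein-coding genes.

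**Figure D5:**
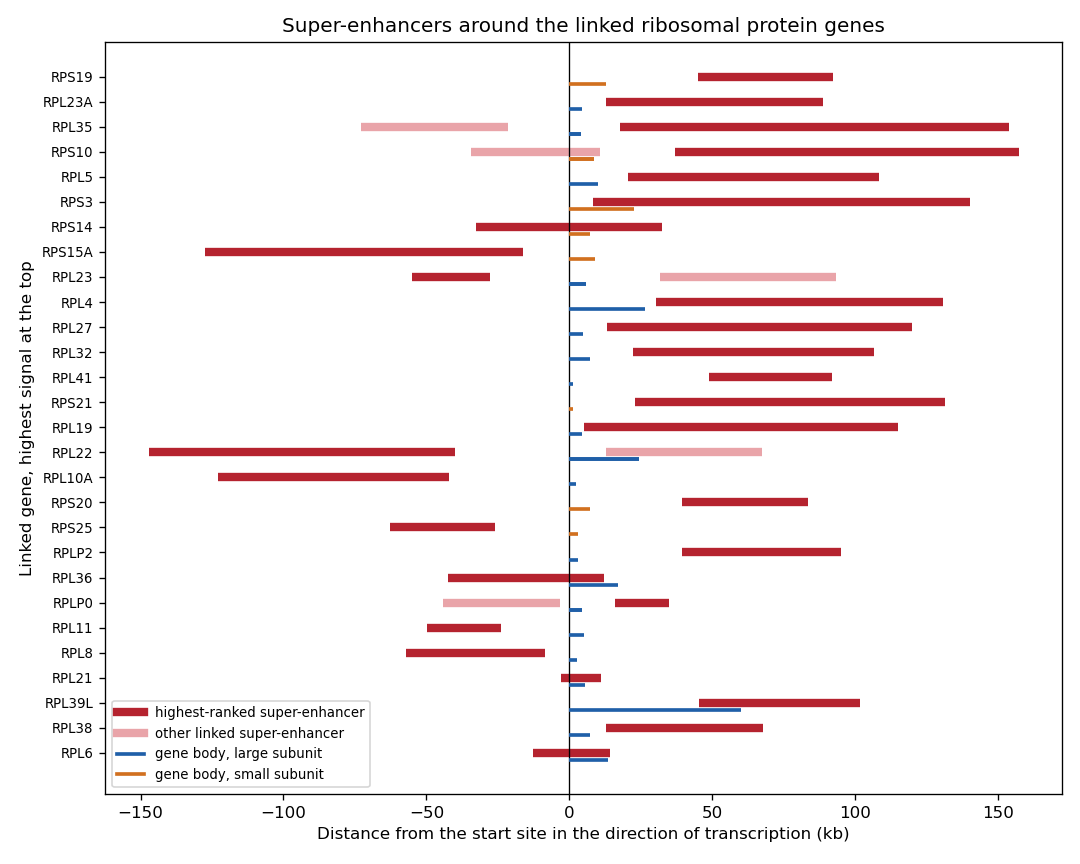
Super-enhancers within 50 kb of 28 of the 29 linked ribosomal protein genes, drawn in kb from each start site in the direction of transcription, with the highest-ranked region in dark red, other linked regions in light red and the gene body as a thin line beneath. Dark bars lie to the right of the start for 17 genes and across it for 4 (RPS14, RPL36, RPL21 and RPL6), and to its left for the others.

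By subunit, 21 of 47 large-subunit genes (44.7%) and 8 of 31 small-subunit genes (25.8%) had a super-enhancer within 50 kb. Genes of the same lengths gave 27.2% and 26.2%. The difference between subunits was 18.9 percentage points with a 95% interval of -3.04 to 37.4, which includes 0. The difference was 18.0 points within 10 kb (27.7% and 9.68%) and 15.5 points within 100 kb (57.4% and 41.9%). It came to 0.961 points at the gene body, where 5 large-subunit and 3 small-subunit genes were overlapped. It came to 1.92 points when only the 1307 regions with the highest signal were counted, which lay within 50 kb of 17.5% of all genes. The highest-ranked regions had a median signal of 18957 for the 21 large-subunit genes and 29514 for the 8 small-subunit genes, so the subunit with the smaller share of linked genes had the higher median, on 8 values from 17150 (RPS25) to 57722 (RPS19).

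Smaller groups by role or disease are given beside the 37.2% of the set, and their like-length shares ran from 22.9% (stalk) to 28.9% (paralogues ending in L). Of 19 genes mutated in Diamond-Blackfan anaemia, an inherited failure of red cell production, 7 (36.8%) were linked (RPL5, RPL11, RPL27, RPL35, RPS10, RPS15A and RPS19), against 22 of the 59 others (37.3%). Of the 26 genes with a snoRNA in the gene body, 10 (38.5%) were linked, against 19 of 52 without (36.5%). Of 3 stalk proteins, which recruit translation factors to the ribosome, RPLP0 and RPLP2 were linked (3.37 and 36.3 kb away) and RPLP1 was 353 kb away. Among 4 genes known to be mutated in lymphoid cancer, RPL5, RPL11 and RPL22 were linked, while RPS15 was 118 kb from a region, and the like-length share was 27.6%. Of the 5 paralogues ending in L, RPL39L was linked, and RPL36AL, RPS27L, RPL3L and RPL10L were 207, 304, 459 and 3176 kb away. RPL3L replaces RPL3 in striated muscle.

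Across chromosomes the counts were small. On chromosome 17, 5 of 6 ribosomal protein genes were linked (RPL19, RPL23, RPL23A, RPL27 and RPL38), where 40.9% of all its genes were. Chromosome 19 held the most, 12, of which 3 were linked, RPS19 and RPL36 among them, where 26.2% of all its genes were. No ribosomal protein gene was linked on chromosomes 2, 4 or 14, which held 4, 3 and 3. The shares of all genes linked there were 24.86%, 22.46% and 36.04%. The 1 gene on chromosome 10 and the 1 on chromosome 18 were also unlinked, where 29.18% and 16.92% of all genes were linked. The 1 gene on chromosome 22, RPL3, was 85.0 kb from a region although 65.5% of all genes there were linked. Neighbouring members did not add to the count: RPL3L and RPS2 (4.45 kb apart) and RPS29 and RPL36AL (19.4 kb) were all unlinked, and of RPS26 and RPL41, 71.9 kb apart, RPL41 was linked.

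Other genes of protein synthesis were counted in the same way. Of 78 mitochondrial ribosomal protein genes, which serve the separate ribosome of mitochondria, 35 (44.9%) were linked, against 29.6% of genes of like length. Of 53 genes whose symbol begins with EIF and a digit, initiation factors with their kinases and binding proteins, 21 (39.6%) were linked, against 32.1%. Of 10 elongation and release factors, a list that also held the kinase gene EEF2K, 5 were linked, among them EEF1A1 and EEF2K, against 31.9%. Of 32 ribosome biogenesis genes, 14 (43.8%) were linked, against 32.2%. EIF5A, listed with the elongation factors, and EIF6, listed with the biogenesis genes, were in the EIF set as well. The cytosolic ribosomal protein genes stood at 37.2%, and the intervals of all 5 sets overlapped. Over genes of like length they were 10.4 points higher, between the initiation factors (7.49 points) and the biogenesis genes (11.5 points). The mitochondrial set, at 15.3 points, and the elongation and release factors, at 18.1 points, stood higher still. A start site inside a region was found in 16 of 78 mitochondrial ribosomal protein genes (20.5%, 95% exact interval 12.2% to 31.2%) in 7 of 32 biogenesis genes (21.9%), in 5 of 53 initiation factors (9.43%) and in 1 of 10 elongation and release factors, beside 5 of 78 (6.41%, 2.11% to 14.3%) for the cytosolic set. Like-length shares for these 5 sets, in the same order, were 7.42%, 8.37%, 8.48%, 8.74% and 6.37%. Median gene length was 11.9 kb in the mitochondrial set against 5.439 kb.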

How the data were processed

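The members, gene lists and comparisons were chosen with earlier results of these data known. In the methods of the study, CUT&RUN reads went through nf-core cutandrun on hg38, coverage was scaled by promoter reads, SEACR gave peaks, MACS2 gave their summits, and super-enhancers came from ROSE. The submitters' processing notes name DiffBind 3.6.1 and DESeq2, whose output was not used here. The deposited signal is the summed ROSE signal per region of 1 pooled column from both WT libraries, used as a relative value. The depth behind it is not given in the table, and no count interval was computed. The authors' other deposited values were the number of constituents, their summed length and the rank, used as given.

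A gene was linked when a region overlapped its GENCODE version 44 body extended by 50 kb. Shares have 95% Clopper-Pearson intervals over genes, differences of shares a Newcombe interval, medians an order-statistic interval, and none is a replicate error. The order-statistic intervals cover slightly less than 95%. Genes are not independent. Length classes were 10 classes of equal size over 19111 genes. No test was run, because the table holds no value per library. Named genes were those overlapped by a region or with their start inside one, the 10 highest and 3 lowest signals, the 3 on each side of the 50 kb limit, and the 3 farthest, and those not reported here were left out. CHD5, PTPN11, LYN and other genes under regions, the members of small groups and those named by chromosome were added after their values were seen. Alternatives were other windows, region sets, member lists and class definitions. The distance and link code was checked on made-up coordinates with known answers, and 120 of 120 were recovered. Software was pandas 2.3.3, numpy 2.4.6, matplotlib 3.10.9 and scipy 1.17.1, under Python 3.11.15.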

Additional observations from a re-analysis of the deposited data

How the results depend on the processing

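Over 6 results and 41 alternative settings, 33 values stayed within the error of the value reported and 8 moved beyond it. For the excess over genes of like length and the difference between subunits, that error was a wide interval that includes 0. Drops to 0.714 and 0.961 points therefore counted as within it, so the 33 do not show that these differences were steady. The share of linked genes was 10.3% with 0 kb, 20.5% with 10 kb and 51.3% with 100 kb, and 20.5% with the 1307 regions of highest signal (17.5% of all genes). It was 37.2% when members sharing a region were counted once, since none did. The median distance was 235 kb to the 1307 regions of highest signal. The median signal was 13169 for regions overlapping the body and 13328 within 10 kb. The share with a start inside a region was 1.28% for the 1307 regions of highest signal, against 4.23% of all genes. Fewer regions or narrower windows make these counts smaller by construction; for the median signal the cause was not tested. The excess over genes of the same classes was above 0 in all 11 values, from 0.714 to 13.9 points, and the difference between subunits in all 7 values, from 0.961 to 19.8 points. The start of the RefSeq entry, an alternative chosen after seeing the data, gave 6.56% of the 61 matched genes.

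No paired analysis was possible because both WT libraries were merged before deposit, and for the same reason leaving out a replicate gave no value. The spread between libraries is unknown, which matters most for regions near the cutoff, such as those of RPS10, RPL6 and RPL22.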
